A study of Mus musculus with 6 samples.

Results

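The kinetochore, centromere and spindle checkpoint genes described here are 40 genes listed by symbol: 1 gene for the centromeric nucleosome, 13 for the constitutive centromere network, 10 for the KMN network, 2 for the outer corona, 3 for the RZZ complex, 6 for the checkpoint and 5 for the chromosomal passenger complex and shugoshin. All 40 were found among the 24732 gene symbols of the expression table. RNA-seq compared 3 control samples with 3 samples in which CTCF, a DNA-binding protein that organises chromatin loops and domains, was knocked down with a lentiviral short hairpin RNA (shCTCF). The cells were mouse female germline stem cells (FGSCs) of strain C57BL/6, kept for more than 20 passages on inactivated STO fibroblast feeders, and puromycin selection followed infection in the study's methods. What the control cells received is not given in the labels. The line was started from ovaries of neonatal mice carrying Ddx4-Cre and mT/mG, a reporter that switches colour in cells with Cre.

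The kinetochore is the protein assembly that joins a chromosome to spindle microtubules. It is built on nucleosomes that hold the histone variant CENP-A, on which the constitutive centromere network sits, and this network carries the KMN network that binds microtubules. Kinetochores without proper attachment recruit checkpoint proteins, which hold back the anaphase-promoting complex and so delay chromosome separation, while Aurora B of the passenger complex releases faulty attachments. Transcripts of many of these genes are made mainly in late S, G2 and M phase, and a promoter motif named the cell cycle genes homology region (CHR) together with CCAAT boxes is a known feature of such genes.

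The total of fragments counted per sample was between 1686052 (control replicate 2) and 7044272, and the other 5 samples had at least 5322636. Ctcf was at 58.2, 56.1 and 53.5 FPKM (fragments scaled to transcript length and to the number of mapped fragments) in the control and at 0.740, 0.550 and 0.629 FPKM in shCTCF. The cells did not show the defining markers of their label. Of 9 germ cell markers, Dppa3 and Gfra1 were listed at 0 FPKM in all 6 samples and Ddx4, Dazl and Pou5f1 were listed at 0 in the control and at no more than 0.182 FPKM in shCTCF. The summed level of the 9 was between 19.5 and 19.8 FPKM in the control and between 25.7 and 27.0 FPKM in shCTCF, most of it from Etv5 and, in shCTCF, Ifitm3. The summed level of 10 mast and myeloid cell markers was between 1757 and 1800 FPKM in the control and between 2284 and 2387 FPKM in shCTCF. Not all of the 10 were present. Fcer1a was listed at 0, and Mcpt4, Tpsb2 and Ms4a2 were at no more than 0.376, 0.557 and 0.160 FPKM in any sample. Within this list the genes moved apart: mean Srgn was 174 FPKM in the control and 770 FPKM in shCTCF and Kit 575 and 787 FPKM, while Cpa3 was 281 and 88.0 FPKM and Ctsg 151 and 2.22 FPKM. Gata2 (means of 501 and 560 FPKM) and Ptprc (104 and 115 FPKM) overlapped between the groups. For 10 fibroblast markers the summed level was 10.9 to 11.4 FPKM in the control and 8.26 to 8.61 FPKM in shCTCF. Of these, Col3a1 and Lum were listed at 0. These sums also differed between the groups, and their part in the results below was not tested. In bulk samples, fewer cells of a type (here, cells in division) and less RNA per cell cannot be told apart.

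Most of the kinetochore genes were lower after the knockdown. With limma on log2(FPKM + 1) and Benjamini-Hochberg adjustment over the 9976 genes that averaged 1 FPKM or more, 33 of the 40 fell and 5 rose at an adjusted p under 0.05, and 2 did not pass. Over all genes tested, 44.2% fell and 28.8% rose, so that 73% were called. Falls made up 60.5% of these calls, and 50.9% (3606 falls and 3482 rises) after the samples were brought to a common median. The median log2 fold change (shCTCF minus control) of the 40 was -0.95, against -0.17 for all genes. In 33 genes every shCTCF sample was below every control sample and in 5 every shCTCF sample was above, where 45.8% and 30.8% of all genes tested had such groups. A fall that passed the test and was at least 2-fold in the group means was found for 21 of the 40, against 18.4% of all genes. None of the 5 rises reached 2-fold. The members' summed level was between 960 and 1026 FPKM in the control and between 454 and 483 FPKM in shCTCF.

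**Figure D1:**
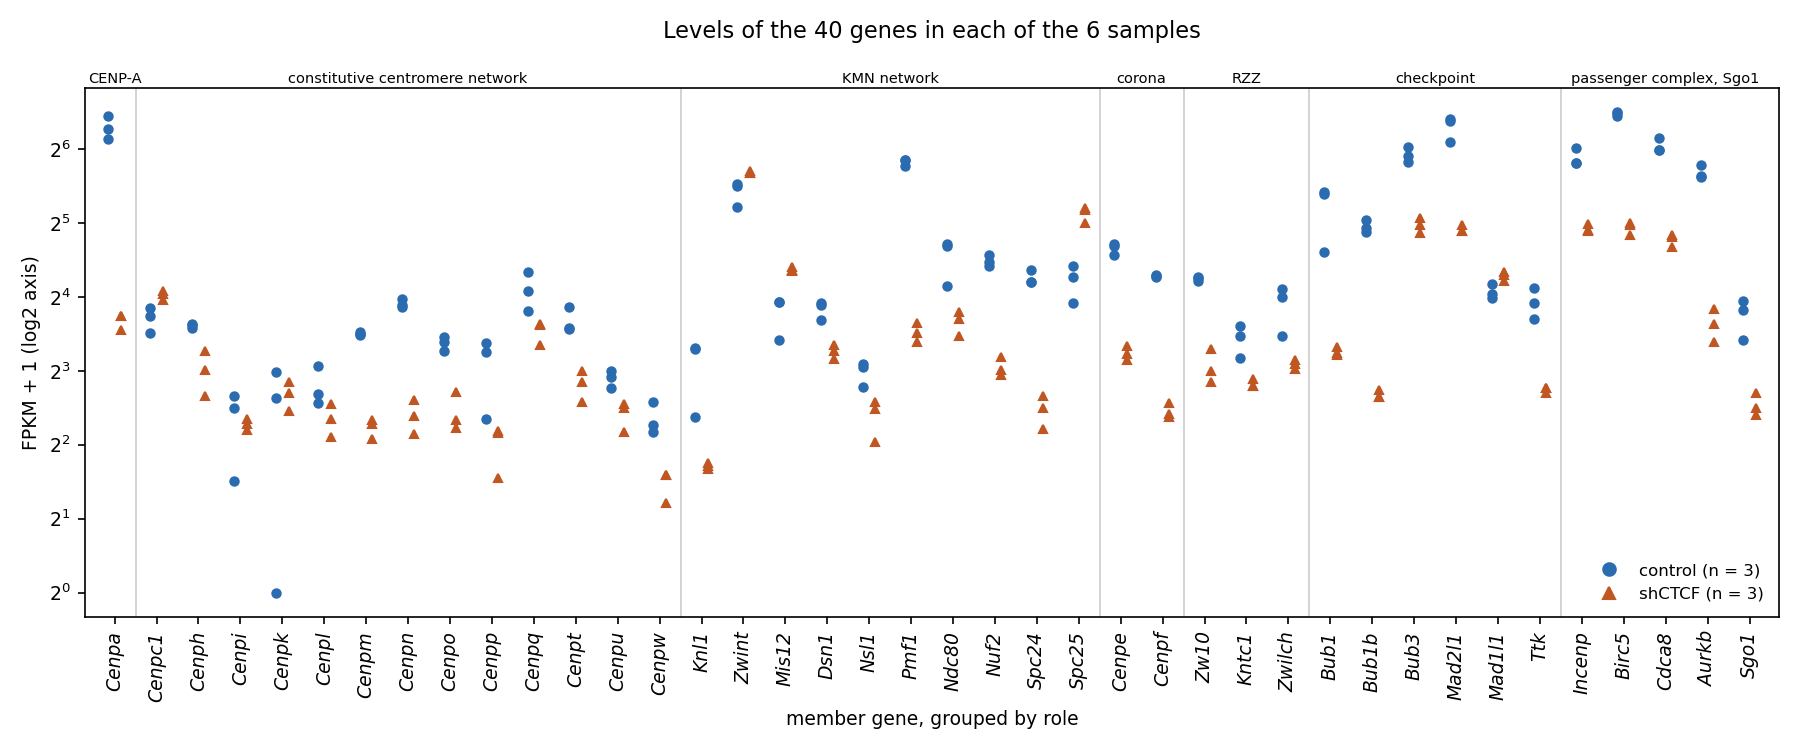
Level of each of the 40 genes (FPKM + 1, log2 axis) in the 3 control samples (circles) and the 3 shCTCF samples (triangles), grouped by role. The circles lie above the triangles for 33 genes and below them for 5, and for Cenpi and Cenpk they overlap.

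The count table gave the same directions where it could be used. Fragments that touched more than 1 transcript accession were left uncounted by the authors, so 13 of the 40 genes, each with 2 or more accessions, had too few counts to be tested. These were Cenpa, Cenpc1, Cenpi, Cenpk, Cenpl, Cenpm, Nuf2, Spc24, Spc25, Bub1, Bub3, Mad1l1 and Ttk. Of the 27 tested with edgeR (quasi-likelihood test, Benjamini-Hochberg adjustment), 24 fell and 2 rose, against 34.3% and 34.8% of the 7341 genes tested. The 26 genes called in both tables were called in the same direction. The median log2 fold change on counts was -1.02 for the 27 genes and -0.02 for all genes. The 27th gene, Cenpo, missed the threshold on counts (log2 fold change -1.11 ± 0.52 SE, adjusted p = 0.0755, edgeR) at 4 to 15 fragments per sample. Of the 24 falls on counts, 17 passed in every alternative in which they were tested and 7 did not (Cenph, Cenpq, Cenpu, Dsn1, Nsl1, Zwilch and Birc5). Leaving out 1 sample ended the count call of Cenpq (control replicate 1 or 3, shCTCF replicate 2 or 3, adjusted p up to 0.225, edgeR), Dsn1 (control replicate 1 or shCTCF replicate 3) and Nsl1 (control replicate 1 or shCTCF replicate 1).

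**Figure D2:**
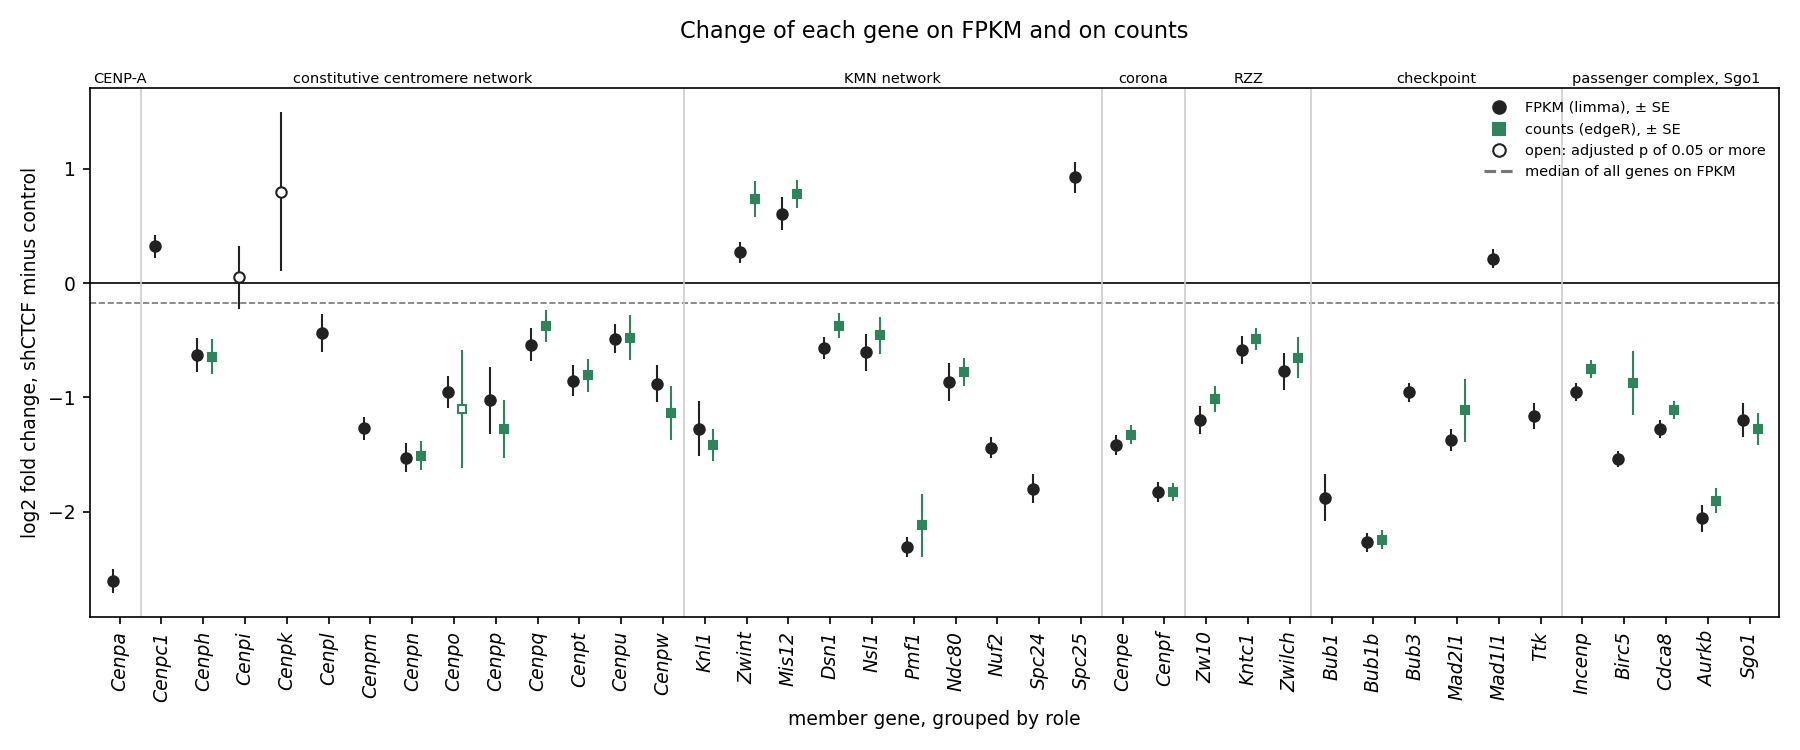
Log2 fold change of each gene, shCTCF minus control, with its standard error, on FPKM (circles, limma) and on counts (squares, edgeR, 27 genes), open where the adjusted p was 0.05 or more (dashed line, the median of all genes on FPKM, -0.17). Spc25, Mis12, Cenpc1, Zwint and Mad1l1 lie above 0 with closed symbols, and Cenpa is the lowest at -2.61.

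Promoter sequence was looked at, as description only, because the members are genes known for shared cell cycle control. Windows of 250 bases before to 50 bases after the annotated transcript start were available in RefSeq (assembly GRCm38.p6) for 35 of the 40 genes, with 39 windows. Nsl1, Incenp, Zwilch, Aurkb and Spc24 had no entry. The windows were searched on both strands for the CHR letters TTTGAA or TTCGAA, for CCAAT, for the E2F-like letters TTGGCGC or TTCCCGC, and for the CTCF core letters CCANNAGGG. The E2F-like letters and CCAAT can overlap on opposite strands. The 5 genes that fell most and the 3 that rose most, among those with a single window, are printed from 150 bases before to 50 bases after the start, 5′ to 3′ on the gene's strand, with the searched letters in capitals. They are shown so that the CHR letters just after the start can be compared between genes that fell and genes that rose.
Cenpa, chr5:30666736-30666935, plus strand: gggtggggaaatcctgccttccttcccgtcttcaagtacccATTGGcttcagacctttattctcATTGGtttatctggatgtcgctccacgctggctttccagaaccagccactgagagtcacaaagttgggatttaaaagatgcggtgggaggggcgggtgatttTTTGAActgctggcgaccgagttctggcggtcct
Pmf1, chr3:88410348-88410547, minus strand: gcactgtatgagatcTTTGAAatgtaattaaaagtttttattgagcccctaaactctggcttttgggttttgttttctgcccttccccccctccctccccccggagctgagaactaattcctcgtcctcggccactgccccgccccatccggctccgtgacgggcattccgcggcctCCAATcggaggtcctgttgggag
Bub1b, chr2:118598061-118598260, plus strand: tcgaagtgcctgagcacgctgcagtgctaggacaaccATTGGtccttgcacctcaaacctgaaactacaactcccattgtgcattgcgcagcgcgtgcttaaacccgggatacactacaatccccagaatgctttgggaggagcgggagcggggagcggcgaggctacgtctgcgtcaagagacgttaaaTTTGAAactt
Bub1, chr2:127831810-127832009, minus strand: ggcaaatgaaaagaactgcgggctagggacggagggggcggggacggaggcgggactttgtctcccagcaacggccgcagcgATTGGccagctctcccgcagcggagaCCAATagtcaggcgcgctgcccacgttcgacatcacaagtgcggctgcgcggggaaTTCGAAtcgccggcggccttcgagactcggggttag
Cenpf, chr1:189688037-189688236, minus strand: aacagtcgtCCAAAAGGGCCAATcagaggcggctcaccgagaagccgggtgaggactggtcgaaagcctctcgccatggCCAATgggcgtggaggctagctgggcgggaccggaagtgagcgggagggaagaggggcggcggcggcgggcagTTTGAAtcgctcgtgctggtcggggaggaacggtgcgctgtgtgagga
Spc25, chr2:69206164-69206363, minus strand: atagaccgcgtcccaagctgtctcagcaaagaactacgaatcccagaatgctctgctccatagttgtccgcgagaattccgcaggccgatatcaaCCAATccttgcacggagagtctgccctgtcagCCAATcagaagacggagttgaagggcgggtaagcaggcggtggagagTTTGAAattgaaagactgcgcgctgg
Mis12, chr11:71019461-71019660, plus strand: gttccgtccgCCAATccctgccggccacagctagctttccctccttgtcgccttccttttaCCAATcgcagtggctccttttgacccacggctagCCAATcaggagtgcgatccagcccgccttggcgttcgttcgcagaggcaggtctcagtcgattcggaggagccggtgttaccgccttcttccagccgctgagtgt
Cenpc1, chr5:86065534-86065733, minus strand: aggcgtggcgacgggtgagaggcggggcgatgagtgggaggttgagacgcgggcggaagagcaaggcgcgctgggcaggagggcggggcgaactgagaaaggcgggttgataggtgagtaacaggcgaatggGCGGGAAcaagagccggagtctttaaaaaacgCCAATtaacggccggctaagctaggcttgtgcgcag

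In Cenpa the CHR letters lay at positions 17 to 22 after the start, with CCAAT letters on the opposite strand upstream. Bub1 held them at 15 to 20, Cenpf at 3 to 8 and Bub1b at 41 to 46, while in Pmf1 they lay upstream. Spc25, the gene that rose most, held them at 25 to 30 and also had 2 CCAAT boxes, so its printed letters were like those of the genes that fell. Mis12 and Cenpc1 held no CHR letters in this window. In Cenpf the CTCF core letters and a CCAAT box directly follow each other.

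CHR letters were present in 19 of the 39 windows (48.7%), against 19.2% of all 32851 windows and 14.0% of the 10391 windows of genes tested on FPKM. CCAAT was present in 69.2% of the members' windows and in 38.1% of those of genes tested, and the E2F-like letters in 23.1% and 12.5%. The CTCF core letters were present in 2 windows, of Cenpf and Ndc80 (5.13%), and in 6.02% of the windows of genes tested. Among members that fell, 18 of 29 windows held CHR letters (62.1%), whereas over all genes that fell 15.3% of windows did. Among members that rose, 1 of 6 windows held them (16.7%), which is the window of Spc25. This is near the 12.5% of windows over all genes that rose. The median log2 fold change on FPKM was -1.24 for the 18 genes with CHR letters and -0.57 for the 17 without. Those without include Cenpc1, Cenph, Cenpi, Cenpk, Cenpo, Cenpp, Cenpq, Cenpt and Cenpu of the constitutive centromere network. Of that network only Cenpl, Cenpm, Cenpn and Cenpw held the letters. Its genes had low levels, where log2(FPKM + 1) understates change, so the letters were not separated from role and level. CCAAT and the E2F-like letters did not split the members in this way. For the CTCF core letters the medians were -1.35 for only 2 genes with them and -0.95 for the 33 without. For CCAAT the medians were -0.92 for the 24 genes with it and -1.03 for the 11 without. For the E2F-like letters they were -0.63 for 9 genes and -1.10 for 26. CCAAT was present in 65.5% of the windows of members that fell and in 66.7% of those that rose. These shares are descriptions and were not tested. With windows of 150 bases before the start, the CHR share was 43.6% of the members' windows and 8.06% of those of genes tested.

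**Figure D3:**
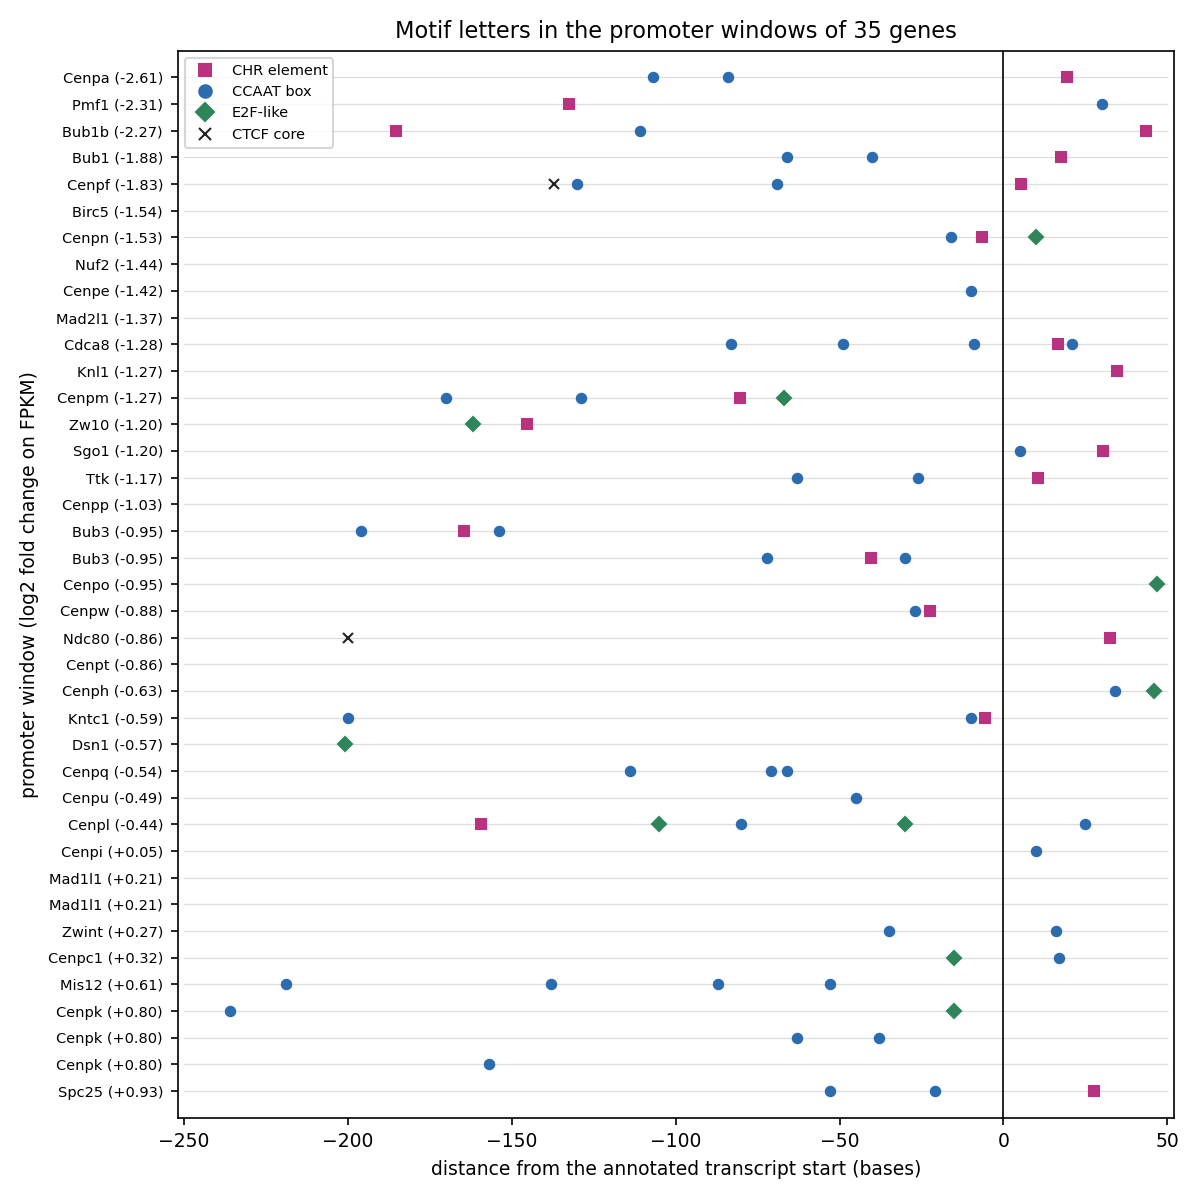
Positions of the searched letters relative to the annotated transcript start (bases, 0 is the start) in the 39 promoter windows, ordered by log2 fold change on FPKM with the largest fall at the top. Squares (CHR letters) are frequent in the upper rows, often between 0 and 50, and the Spc25 window is the only one in the lowest rows, from Cenpi down, that holds one.

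CENP-A, encoded by Cenpa (mm9 chr5:30969259-30977210, plus strand), is the histone H3 variant that marks the centromere. Its level was 69.1, 86.5 and 76.5 FPKM in the control and 12.4, 10.7 and 12.4 FPKM in shCTCF. The groups were far apart, and the mean was 6.54-fold lower (log2 fold change -2.61 ± 0.10 SE, adjusted p = 4.54e-07, limma). This was the largest fall of the 40 genes, and 0.7% of all genes tested had a log2 fold change as low. All of the signal came from 2 of the 6 accessions of the gene, and both were lower in each shCTCF sample than in each control sample. Its accessions overlap, so Cenpa could not be tested on counts.

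The constitutive centromere network (13 genes) stays at the centromere through the cell cycle. Its median log2 fold change on FPKM, -0.63, was the smallest of the roles. Of the 13 genes, 10 fell, 1 rose and 2 did not pass, where 44.2% of all genes tested fell and 28.8% rose. The control means were low, between 3.95 and 16.0 FPKM, where log2(FPKM + 1) understates change. On counts the median of the 8 genes tested was -0.96, against -0.46 for the KMN network and -0.66 for the RZZ complex. Cenpn, whose product recognises the CENP-A nucleosome, was at 13.9, 13.5 and 14.6 FPKM in the control and at 3.43, 5.06 and 4.23 FPKM in shCTCF. This 3.30-fold fall was the largest of the network (log2 fold change -1.53 ± 0.12, adjusted p = 1.68e-05, limma), and counts gave -1.51 ± 0.13 (adjusted p = 4.36e-07, edgeR). Cenpm, a subunit with CENP-H, CENP-I and CENP-K, was at 10.3, 10.2 and 10.5 FPKM in the control and at 4.04, 3.21 and 3.88 FPKM in shCTCF (log2 fold change -1.27 ± 0.10). In Cenpm the fall was in 1 accession, whose mean went from 9.03 to 1.46 FPKM, and the other 2 stayed at or under 2.86 FPKM in every sample.

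The other genes of the network that fell were Cenph, Cenpl, Cenpo, Cenpp, Cenpq, Cenpt, Cenpu and Cenpw, with log2 fold changes on FPKM from -1.03 (Cenpp) to -0.44 (Cenpl). Cenpt and Cenpw, which encode histone-fold proteins, were at -0.86 and -0.88. Cenpl was the weakest call (adjusted p = 0.044, limma), and it no longer passed when either control replicate 1 or 3 or shCTCF replicate 1 or 2 was left out. Cenpp lost its call without shCTCF replicate 3 (log2 fold change -0.82, adjusted p = 0.0506, limma). In Cenpu, 43.3% of the exon bases also lie in exons of Primpol on the opposite strand, and without strand use the reads of the 2 genes cannot be told apart. On counts Cenpu was at -0.48 (adjusted p = 0.0483, edgeR), and this call was lost in 8 of 14 alternatives, among them leaving out control replicate 2 or 3 or shCTCF replicate 1 or 2 (adjusted p = 0.0648 to 0.159, edgeR).

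Cenpc1 encodes CENP-C, which links CENP-A nucleosomes to the KMN network, and it rose while its neighbours fell. It was at 13.5, 10.4 and 12.4 FPKM in the control and at 15.4, 14.6 and 15.9 FPKM in shCTCF. The lowest shCTCF value was 1.12 FPKM above the highest control value (log2 fold change 0.32 ± 0.10, adjusted p = 0.0234, limma), and the call was lost without shCTCF replicate 1 or 3. Cenpi was at 5.31, 1.86 and 4.67 FPKM in the control and at 3.59, 4.10 and 3.85 FPKM in shCTCF, and the groups overlapped (adjusted p = 0.881, limma). Its low control value is that of replicate 2, the sample with the fewest fragments, and without this sample Cenpi had a log2 fold change of -0.31 ± 0.10 (adjusted p = 0.022, limma). Cenpk was at 6.87 and 5.20 FPKM in control replicates 1 and 3 and listed at 0 in replicate 2, against 4.49, 5.50 and 6.24 FPKM in shCTCF. The fitted log2 fold change of Cenpk was 0.80 ± 0.69 (adjusted p = 0.326, limma) and -0.13 ± 0.15 without control replicate 2. Neither gene had enough counts for a test.

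The 10 genes of the KMN network (KNL1, MIS12 and NDC80 complexes), the microtubule-binding core of the kinetochore, included 7 that fell and 3 that rose on FPKM, with a median log2 fold change of -0.74. With 10 genes, 3 rises are near the 28.8% of all genes that rose. Pmf1, a MIS12 complex subunit (mm9 chr3:88198060-88214319, minus strand), fell most. It was at 53.4, 57.0 and 56.9 FPKM in the control and at 9.47, 10.4 and 11.6 FPKM in shCTCF, 5.33-fold lower (log2 fold change -2.31 ± 0.09, adjusted p = 3.45e-07, limma), and counts gave -2.12 ± 0.28. Mis12, its partner in the complex (mm9 chr11:70833113-70840636, plus strand), went the other way. It was at 14.3, 9.66 and 14.3 FPKM in the control and at 19.4, 20.1 and 19.5 FPKM in shCTCF. All shCTCF values of Mis12 lay above all control values (log2 fold change 0.61 ± 0.14, adjusted p = 0.00557, limma), and counts gave 0.78 ± 0.12 (adjusted p = 0.000112, edgeR). In Mis12, 8.4% of the exon bases lie in exons of Derl2 on the opposite strand. The remaining subunits, Dsn1 and Nsl1, fell with log2 fold changes of -0.57 and -0.61.

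The NDC80 complex was split too. Its subunits Ndc80 and Nuf2 reach the microtubule, and Spc24 and Spc25 pair at the other end and dock on the inner kinetochore. Spc24 was at 19.6, 17.4 and 17.4 FPKM in the control and at 3.62, 5.35 and 4.66 FPKM in shCTCF, a fall that left no overlap (log2 fold change -1.80 ± 0.13, adjusted p = 8.41e-06, limma). Spc25 (mm9 chr2:69031952-69044270, minus strand) was at 18.3, 14.0 and 20.4 FPKM in the control and at 35.2, 30.9 and 35.9 FPKM in shCTCF. Every shCTCF sample was thus above the control range, 1.94 times the control mean (log2 fold change 0.93 ± 0.14, adjusted p = 0.000431, limma), the largest rise of the 40 genes. Both accessions of Spc25 that were detected were higher on average, with means of 3.60 and 6.85 FPKM for the first and of 14.0 and 27.2 FPKM for the second. Ndc80 and Nuf2 fell, with log2 fold changes of -0.86 and -1.44. Spc24, Spc25 and Nuf2 had too few counts to be tested, so the split of this complex rests on FPKM alone. Nuf2 has 2 accessions between which the FPKM moved from sample to sample, so its value rests on their sum: with the row of highest mean alone it was 0.20 ± 1.08 (adjusted p = 0.878, limma).

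The balance of partner subunits differed between the groups, here as FPKM ratios for pairs chosen after their values were seen and without a test. Spc25 over Spc24 was 0.931, 0.805 and 1.17 in the control and 9.73, 5.78 and 7.72 in shCTCF. Mis12 over Pmf1 was 0.268, 0.170 and 0.251 in the control and 2.05, 1.94 and 1.69 in shCTCF. In both pairs 1 gene was higher and the other lower in every shCTCF sample. The ratios of the 2 groups therefore had to separate, and their separation adds nothing to the changes of the single genes. In Mis12 and Pmf1 the order of the 2 levels turned over.

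**Figure D4:**
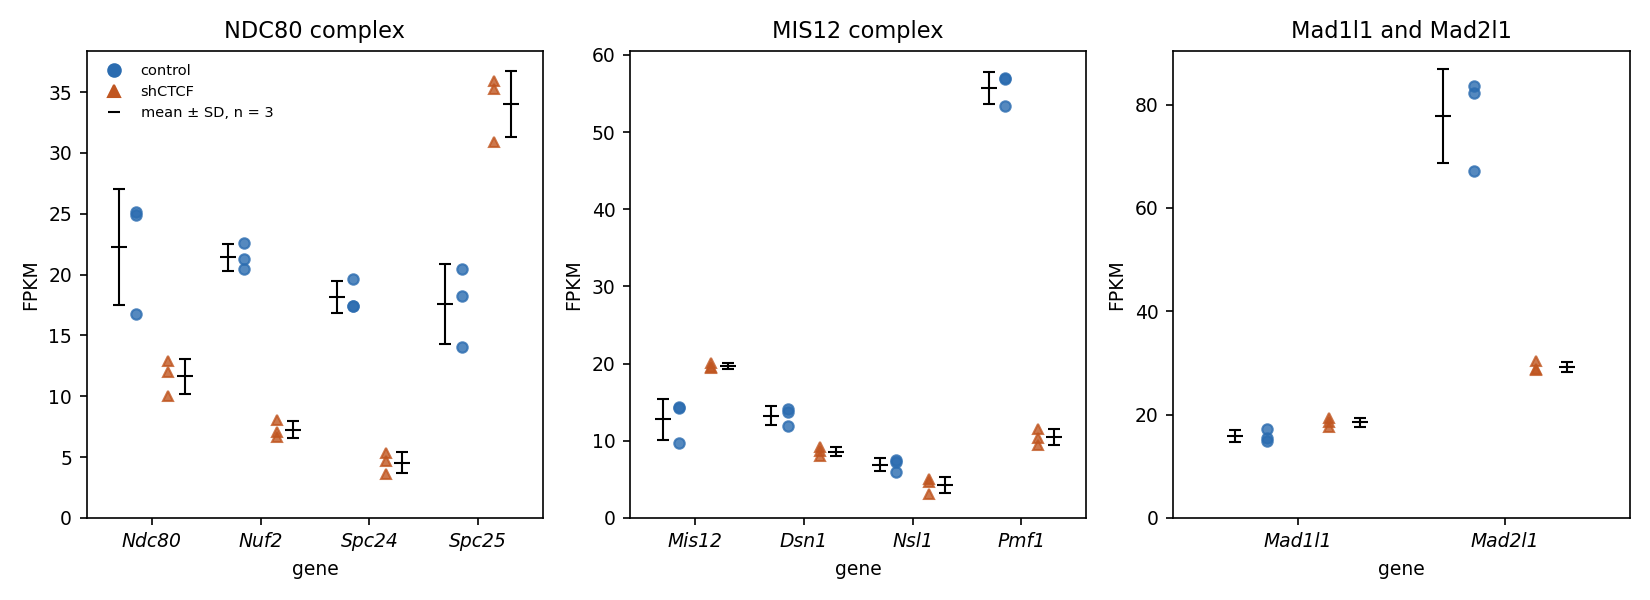
FPKM in each sample (circles control, triangles shCTCF) with the mean ± SD of 3 samples, for the subunits of the NDC80 and MIS12 complexes and for Mad1l1 and Mad2l1. Spc25, Mis12 and Mad1l1 are higher in every shCTCF sample, and all other genes drawn are lower in every shCTCF sample.

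Knl1, the scaffold on which checkpoint proteins gather, was at 8.92, 4.17 and 8.77 FPKM in the control and at 2.19, 2.28 and 2.39 FPKM in shCTCF (log2 fold change -1.27 ± 0.24, adjusted p = 0.00187, limma). Zwint, which binds KNL1 and the RZZ complex, had the smallest change of the network on FPKM. Its level was 44.3, 36.2 and 45.2 FPKM in the control and 50.3, 50.1 and 51.3 FPKM in shCTCF (log2 fold change 0.27 ± 0.09, adjusted p = 0.0288, limma). The mean of all 3 Zwint accessions was higher in shCTCF, and counts gave a larger change of 0.74 ± 0.16 (adjusted p = 0.0014, edgeR). On FPKM the call was lost when any shCTCF sample was left out. Zwint had the highest shCTCF level of the KMN genes, at a mean of 50.6 FPKM.

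Both genes of the outer corona fell, as did 44.2% of all genes tested on FPKM. Cenpf, a large microtubule-binding protein, was at 18.7, 18.2 and 18.4 FPKM in the control and at 4.36, 4.17 and 4.91 FPKM in shCTCF. That is 4.12-fold lower (log2 fold change -1.83 ± 0.09, adjusted p = 9.93e-07, limma), with the same -1.83 on counts. Cenpe, a kinesin that carries chromosomes to the spindle equator, was at 24.8, 22.7 and 25.2 FPKM in the control and at 8.38, 7.87 and 9.12 FPKM in shCTCF (log2 fold change -1.42 ± 0.09, adjusted p = 3.52e-06, limma). The spread within each group was small beside the difference in both genes. Cenpe and Cenpf were also among the best counted genes, with 465 to 2586 fragments in each sample.

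The 3 genes of the RZZ complex, which brings dynein and MAD1 to unattached kinetochores, also fell in both tables, Zwilch less firmly on counts. The shares of all genes tested that fell were 44.2% on FPKM and 34.3% on counts. Zw10 was at 18.1, 17.6 and 18.3 FPKM in the control and at 6.21, 8.86 and 6.97 FPKM in shCTCF (log2 fold change -1.20 ± 0.12, adjusted p = 5.29e-05, limma). Zwilch was at 16.2, 10.1 and 14.98 FPKM in the control and at 7.11, 7.54 and 7.86 FPKM in shCTCF (log2 fold change -0.77 ± 0.16, adjusted p = 0.00303, limma). Kntc1, the largest subunit, had 11.1, 7.99 and 10.1 FPKM in the control and 5.91, 5.96 and 6.40 FPKM in shCTCF (log2 fold change -0.59 ± 0.12, adjusted p = 0.003, limma). In Zwilch and Kntc1 control replicate 2 was the lowest control sample, and on FPKM it still lay above the shCTCF range. Scaled to the sample's total, the counts of Zwilch overlapped between the groups, and its count call was lost without control replicate 1 (adjusted p = 0.051, edgeR).

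Of the 6 checkpoint genes, 5 fell and 1 rose on FPKM, where 44.2% of all genes tested fell and 28.8% rose. Bub1b (mm9 chr2:118423947-118467328, plus strand) encodes BUBR1, which with MAD2, BUB3 and CDC20 forms the complex that inhibits the anaphase-promoting complex. It was at 29.5, 31.9 and 28.4 FPKM in the control and at 5.26, 5.27 and 5.67 FPKM in shCTCF. The fall was 5.54-fold (log2 fold change -2.27 ± 0.08, adjusted p = 2.86e-07, limma), and counts gave -2.25 ± 0.09 (adjusted p = 5.71e-10, edgeR). The kinase gene Bub1 was at 40.9, 23.3 and 41.8 FPKM in the control and at 8.30, 8.47 and 8.97 FPKM in shCTCF (log2 fold change -1.88 ± 0.21, adjusted p = 8.68e-05, limma). Control replicate 2 was low for Bub1, but stood 2.60 times above the highest shCTCF sample.

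Mad2l1, the gene of the inhibitor MAD2, went from a mean of 77.7 ± 9.10 FPKM (SD, n = 3) to 29.2 ± 1.02 FPKM. Bub3 went from 59.7 ± 4.24 to 30.3 ± 2.18 FPKM, and Ttk, the kinase MPS1 that starts checkpoint signalling, from 14.1 ± 2.201 to 5.70 ± 0.18 FPKM. The log2 fold changes of Mad2l1, Bub3 and Ttk were -1.37, -0.95 and -1.17. Mad1l1, whose product anchors MAD2 at the kinetochore, did not follow them. It was at 15.5, 17.1 and 14.8 FPKM in the control and at 17.5, 18.6 and 19.2 FPKM in shCTCF. The gap between the groups was 0.393 FPKM, the weakest rise of the 5 (log2 fold change 0.21 ± 0.08, adjusted p = 0.0475, limma), and the call was lost when any sample other than control replicate 2 was left out. The FPKM ratio of Mad1l1 to Mad2l1, a pair chosen after its values were seen, was 0.177 to 0.254 in the control and 0.575 to 0.669 in shCTCF. This separation also follows from the opposite directions of the 2 genes.

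All 5 genes of the chromosomal passenger complex and shugoshin were called lower in both tables, though Birc5 was not a stable call on counts. Of all genes tested, 44.2% fell on FPKM and 34.3% on counts. Aurkb (mm9 chr11:68859139-68865166, plus strand), the kinase of the complex, was at 48.5, 53.9 and 48.3 FPKM in the control and at 9.46, 13.3 and 11.4 FPKM in shCTCF. Its mean was 4.42-fold lower (log2 fold change -2.06 ± 0.12, adjusted p = 2.87e-06, limma), and counts gave -1.91 ± 0.11 (adjusted p = 1.55e-08, edgeR). Birc5, the gene of survivin, had the highest control level of the 40 at 88.5, 86.6 and 89.3 FPKM and was at 27.5, 30.9 and 30.5 FPKM in shCTCF (log2 fold change -1.54 ± 0.07, adjusted p = 8.23e-07, limma). On counts Birc5 had no more than 64 fragments in a sample, and its change was smaller there, -0.88 ± 0.28 (adjusted p = 0.0144, edgeR). That call was lost without control replicate 1 or 3 or shCTCF replicate 2 or 3 (adjusted p = 0.0508 to 0.0671, edgeR) and with DESeq2 (adjusted p = 0.0584), and the groups overlapped in counts scaled to the sample's total. Incenp, the scaffold of the complex, fell least, from 55.1, 63.6 and 55.0 FPKM to 28.6, 30.7 and 28.8 FPKM (log2 fold change -0.95 ± 0.08, adjusted p = 1.95e-05, limma). Cdca8, the gene of borealin, and Sgo1, which protects cohesion at the centromere, were at -1.28 and -1.20. Within this complex the 4 subunit genes kept the same direction, unlike those of the MIS12 and NDC80 complexes.

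Other genes of cell division were read in the same fits, as whole lists. Over all genes tested on FPKM, 44.2% fell and 28.8% rose. Of 28 further kinetochore and checkpoint genes, 27 were tested on FPKM, and 21 fell, 3 rose and 3 did not pass (median log2 fold change -1.002). Plk1, a mitotic kinase, fell from 38.1 to 5.34 FPKM (log2 fold change -2.63), Cdc20, the target of the checkpoint, from 96.5 to 16.6 FPKM (-2.47), and Trip13, an ATPase that recycles MAD2, from 16.8 to 3.16 FPKM (-2.10). Mad2l1bp, whose product p31comet works with TRIP13 to take the checkpoint complex apart, rose from 15.1 to 34.8 FPKM (log2 fold change 1.15, adjusted p = 1.06e-05, limma), with 1.41 on counts. Dynlt3, a dynein light chain, and Bod1 also rose, with log2 fold changes of 0.98 and 0.33 (adjusted p = 0.0197 and 0.0497, limma). With any 1 shCTCF sample left out the list had 1 rise on FPKM in place of 3. On counts Dynlt3 and Bod1 were at 0.999 and 0.62 (adjusted p = 0.001 and 0.00106, edgeR). There the list had 3 rises whichever sample was left out. Of 20 genes of the anaphase-promoting complex, its activators and its substrates, 15 fell on FPKM and 5 did not pass. The largest changes there were those of Ccnb1 (-2.44), Ube2c (-1.93) and Pttg1 (-1.66).

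Of 18 G2/M genes, 18 fell, with a median log2 fold change on FPKM of -1.31 and the largest changes in Ccna2 (-2.04), Ccnb2 (-1.96) and Cdc25c (-1.68). Of 18 S phase genes, 11 fell, 5 rose and 2 did not pass, with a median of -0.49. With 18 genes, 5 rises are near the 28.8% of all genes that rose. Rrm2, the small subunit of ribonucleotide reductase, rose from 67.3 to 165 FPKM (log2 fold change 1.29), and the replication genes Cdc6, Pcna, Chaf1b and Fen1 rose with log2 fold changes of 0.74, 0.62, 0.48 and 0.46. The helicase genes Mcm7 and Mcm6 fell with -1.33 and -1.30. On counts Mcm7 was at 0.06 (adjusted p = 0.891, edgeR), but with only 4 to 15 fragments per sample. The direction of Mcm7 thus rests on the FPKM table. The kinetochore genes thus had a median change on FPKM between those of the S phase and the G2/M lists. These lists share cells and samples with the kinetochore genes, and their part in the members' change was not tested.

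**Figure D5:**
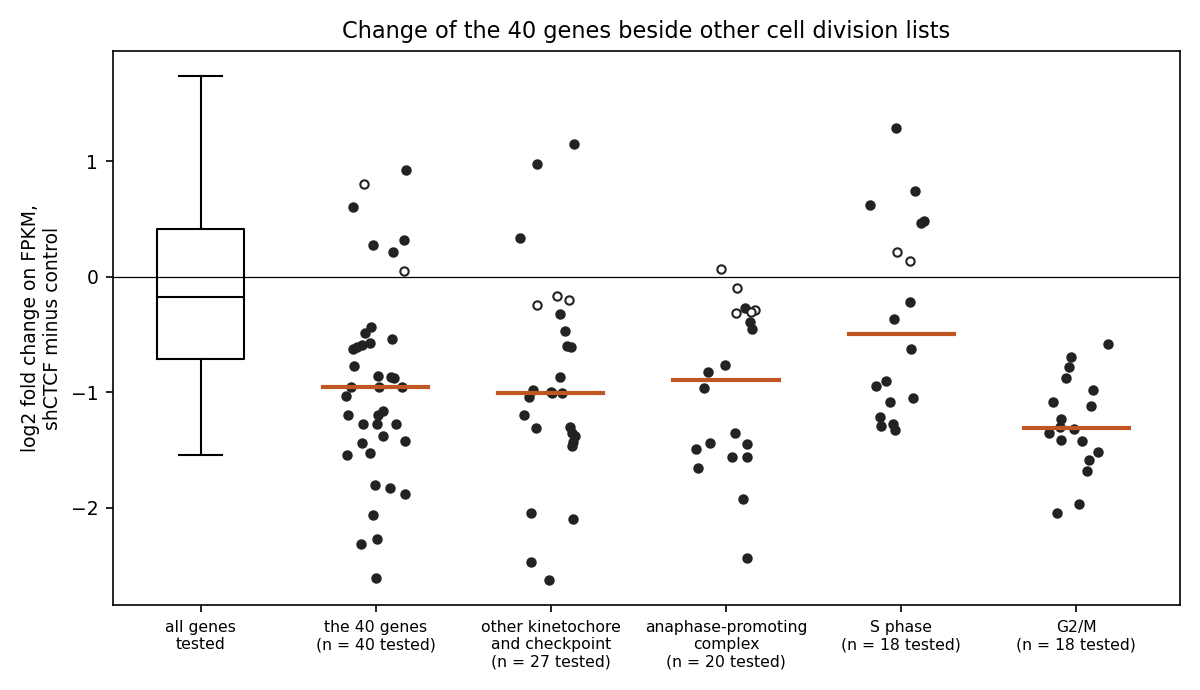
Log2 fold change on FPKM, shCTCF minus control, of all genes tested (box from the 25th to the 75th percentile with the median, whiskers at the 5th and 95th) and of single genes in 5 lists (points, open where the adjusted p was 0.05 or more, line at the median; sideways position is random). The medians are -0.95 for the 40 genes, -1.002 for other kinetochore genes, -0.89 for the anaphase-promoting complex, -0.49 for S phase, -1.31 for G2/M and -0.17 for all genes.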

How the data were processed

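RNA-seq of 6 samples was used, 3 control and 3 shCTCF, grouped by GEO's labels. Stranded mRNA libraries were aligned by the authors to mm9 with HISAT2 (version 4.8.2 per the submitters' processing notes). The deposited counts were whole fragments per RefSeq accession from featureCounts 1.6.2, made by the authors without strand and without normalization. The deposited FPKM values were computed by the authors with Cufflinks 2.2.1 and are scaled to transcript length and depth. Accessions were named with a RefSeq gene table (GRCm38.p6, names only), which matched 41685 of 41876 FPKM rows and 41186 of 41388 accessions with counts, and values were summed per symbol. Unmatched accessions held at most 0.603% of a sample's counts. No value column was without a sample (0 columns).

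The main test was on log2(FPKM + 1), for genes that averaged 1 FPKM or more, with limma 3.58.1 (trend), and this scale understates the change of low genes. Counts were tested with edgeR 4.0.16 (quasi-likelihood, TMM, filterByExpr) in R 4.3.3. The p-values were two-sided and Benjamini-Hochberg adjusted over all genes tested, with 0.05 as the threshold, and both procedures were tested on simulated data. The smallest p that an exact permutation of 3 against 3 samples can give is 0.1, so none is printed. The labels do not say whether the samples came from separate cultures, so p-values measure only the spread between these samples. A floor of 3 counts was 0.426 to 1.78 CPM (counts scaled to the sample's total), and covers counting error only.

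The members and the gene lists were chosen with earlier results of these data known. Values in every sample are given for members that rose or passed no threshold, and in each role for the 2 largest and the 1 smallest absolute change on FPKM (Knl1, partner of Zwint, was added after its values were seen). Of other lists, the 3 largest changes and every call against the list's majority are named. Alternatives were other pseudocounts, filters, scalings, count models (DESeq2 1.42.0 among them), 1 row or accession per gene, a replicate block and leaving out each sample. Promoter sequences were those of RefSeq (GRCm38.p6) and gene coordinates those of mm9 in the count table.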

Additional observations from a re-analysis of the deposited data

How the results depend on the processing

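Of the 33 falls on FPKM, 29 kept their direction and call under each FPKM alternative in which they were tested (15, or 14 for Cenpw and Knl1, which average under 5 FPKM), and the other 4 (Cenpl, Cenpp, Ttk and Nuf2) lost it under at least 1; of the 5 rises, Spc25 and Mis12 kept theirs. The members' median log2 fold change on FPKM moved to -1.13 and -1.16 with pseudocounts of 0.1 and 0.01 FPKM, to -1.03 with a mean of at least 5 FPKM, to -0.78 with each sample scaled to the same median (which shifts the median of all genes from -0.17 to -0.01) and to -0.88 with quantile normalization. No member changed direction under these scalings. On counts the median moved to -1.19 with library size only, -0.83 without a filter, -0.72 with a mean of at least 5 FPKM and -0.81 with genes of 1 accession only, where 1 member rose. Members called higher on FPKM numbered 3 with the row of highest mean and 2 in the count table. With the row of highest mean Nuf2 had a log2 fold change of 0.20. Without control replicate 2 Cenpi was at -0.31 and Cenpk at -0.13, and leaving out the other samples in turn gave up to 0.27 and 1.35. The cause was not tested. Leaving out 1 sample at a time gave 2 to 5 members called higher and 32 to 34 called lower on FPKM. Of the other kinetochore genes, 1 to 3 were then called higher on FPKM. The members' median was -1.01 to -0.93 on FPKM and -0.98 to -0.86 on counts, and 19 to 23 members were called lower on counts. Same-numbered samples did not deviate together (correlations -0.041, 0.018 and 0.0395). This does not settle whether they shared a culture, which the labels do not say. With a replicate block, 32 members fell and 4 rose on FPKM, Cenpl and Mad1l1 losing their calls (adjusted p = 0.0706 and 0.0783, limma), and 24 fell and 2 rose on counts. Depth limits the count table, where control replicate 2 had 1686052 fragments.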
